A study of Homo sapiens with 24 samples.

Results

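STAB2 and 5 further genes used as markers of sinusoidal or lymphatic endothelium, STAB1, LYVE1, FLT4, PROX1 and PDPN, were followed through human embryonic stem cells differentiated toward heart muscle. The 6 genes were found by symbol among the 62757 rows of the gene count table. All 6 were present, and 5 of them were among the 17724 genes that passed the filter on low counts, while LYVE1 was not. STAB2 was selected on its difference between AM TRAC and VM TRAC libraries, so the values of all 6 genes in that contrast are given as a description without a test.

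The study made bulk RNA sequencing libraries from embryoid bodies, floating aggregates of differentiating cells, of a HES3 line that carries a GFP reporter at NKX2-5 and an mCherry reporter at NR2F2. Every group went through a protocol that modulates Wnt signalling for at most 14 days. The 12 AM libraries were read as the atrial condition, which received retinoic acid at day 4, and the 12 VM libraries as the ventricular condition without it. The labels do not spell out AM and VM. In each condition, cells had been edited with CRISPR-Cas9 at LHX2, ZNF503 or ZNF711, or at TRAC as the control, and each of the 8 groups had 3 libraries numbered 1 to 3. The labels do not say whether libraries of a group came from separate cultures or clones, so the p-values measure only the spread between these samples.

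Stabilin-2 (STAB2) and stabilin-1 (STAB1) are large scavenger receptors of endothelial cells that line sinusoids, as in liver, spleen and lymph node, and STAB2 takes up hyaluronan from the circulation. LYVE1 is another hyaluronan receptor, known from lymphatic endothelium and some macrophages. FLT4 encodes VEGFR-3, the receptor for VEGF-C, PROX1 is the transcription factor that sets lymphatic identity, and PDPN encodes podoplanin, a membrane glycoprotein of lymphatic endothelium. None of these genes is restricted to such vessels. In the heart, PROX1 is also made by cardiomyocytes, PDPN by mesothelial and other mesenchymal cells, and FLT4 by other developing endothelium.

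STAB2 is on chromosome 12, from 103587273 to 103766727 on the plus strand, and STAB1 on chromosome 3, from 52495338 to 52524495 on the plus strand (GRCh38, GENCODE 29). The 250 bases before the annotated start of each are shown because the 2 stabilins varied together across the AM libraries, as described below. They come from RefSeq on GRCh38.p14, at chr12:103587023-103587272 and chr3:52495088-52495337, both on the plus strand, and are written 5′ to 3′.
STAB2: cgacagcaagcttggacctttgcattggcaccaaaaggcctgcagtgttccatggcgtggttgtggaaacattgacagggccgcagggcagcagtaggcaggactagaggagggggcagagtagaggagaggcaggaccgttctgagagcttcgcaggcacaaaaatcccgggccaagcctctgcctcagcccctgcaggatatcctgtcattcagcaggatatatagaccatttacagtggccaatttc
STAB1: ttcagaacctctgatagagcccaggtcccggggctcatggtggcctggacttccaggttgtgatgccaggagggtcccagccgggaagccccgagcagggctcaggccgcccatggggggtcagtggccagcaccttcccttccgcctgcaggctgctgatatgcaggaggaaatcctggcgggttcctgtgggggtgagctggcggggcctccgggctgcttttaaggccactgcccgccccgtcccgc
Neither window held any of 4 short motifs searched on both strands, so no letters are in capitals. The motifs were the nuclear receptor half-site AGGTCA, found in 12.1% of 35116 promoter windows of that length, the GATA site AGATAA in 9.17%, the ETS core AGGAAG in 28.7% and the forkhead site TGTTTAC in 2.98%. The STAB2 window was 55.6% G or C with 6 CpG dinucleotides and the STAB1 window 67.6% with 11, against medians of 58% and 11 over all windows.

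Libraries held between 2899786 and 7438010 counts, and 3 counts corresponded to 0.446 to 0.958 CPM, the unit of depth-scaled counts used below (with TMM scaling factors). Intervals and floors below cover counting error only. The edited genes gave a limited check of the labels. LHX2 stayed at 34 counts or fewer in every library, and TRAC at 19 or fewer. ZNF711 was at 25.8 to 33.8 CPM in VM ZNF711 against 34.5 to 47.7 in VM TRAC, while its ranges overlapped in AM, 31.1 to 55.6 against 47.2 to 60.0. ZNF503 was higher in the libraries labelled ZNF503, at 254 to 365 CPM in AM against 103 to 122 in AM TRAC. In VM it was at 19.1 to 45.1 against 8.77 to 16.2. Gene counts could not check that knockout. ZNF503 below therefore names libraries labelled for that knockout.

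STAB2 was read in all 12 AM libraries and was at 0 in 10 of 12 VM libraries, with 4 counts in all of VM against 1940 in AM. In AM TRAC it was at 50.05, 87.1 and 40.5 CPM for replicates 1, 2 and 3, and all 3 VM TRAC libraries were at 0, so that AM was at least 334-fold higher by description, with the floor of 3 counts taken over the group. In AM LHX2, STAB2 was at 36.1, 59.2 and 0.947 CPM, and in VM LHX2 at 0, 0 and 0.199. Replicate 3 of AM LHX2 stood far below the other two, yet its 5 counts were above those of every VM library. Over the group, 348 counts stood against 1, a ratio of 427 with a 95% counting interval of 76.1 to 16908.

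In AM ZNF503, STAB2 was at 37.1, 36.8 and 3.89 CPM, with replicate 3 again the low one, and all VM ZNF503 libraries were at 0. The pooled AM level was at least 122-fold higher than the floor of the VM group. In AM ZNF711 it was at 6.92, 4.02 and 7.26 CPM, a narrow and low set, and in VM ZNF711 at 0.739, 0 and 0. There, 82 counts stood against 3, a ratio of 28.2 with a counting interval of 9.32 to 140. The AM and VM libraries did not overlap in any genotype, including TRAC, the contrast on which STAB2 was selected. The share of all tested genes without such overlap is not given, so overlap is a description here and below.

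STAB2 rose in AM against VM in LHX2, with an edgeR quasi-likelihood adjusted p of 0.00898, and in ZNF503 with an adjusted p of 0.0104, over all 17724 tested genes. In ZNF711 it did not pass, with an edgeR adjusted p of 0.102. With a replicate block within each condition the call was lost in LHX2 and ZNF503, at edgeR adjusted p of 0.153 and 0.162, and the LHX2 call was also lost without VM LHX2 replicate 3, the library with the only count, at 0.0584. Without all libraries numbered 1 or 2 both calls were lost, at edgeR adjusted p of 0.242 and 0.161 in LHX2 and 0.292 and 0.124 in ZNF503. With only the groups compared in the fit, STAB2 failed the filter on low counts in LHX2 and was not tested, did not pass in ZNF503 (edgeR adjusted p of 0.104) and passed in ZNF711 (0.00108). DESeq2 gave an adjusted p of 0.0200 in ZNF711. In the main fit STAB2 passed the filter on low counts only through AM libraries, those of AM TRAC included. No VM library had more than 3 counts. The p-values of the main fit thus rest on a gene kept through the condition where it is high.

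**Figure D1:**
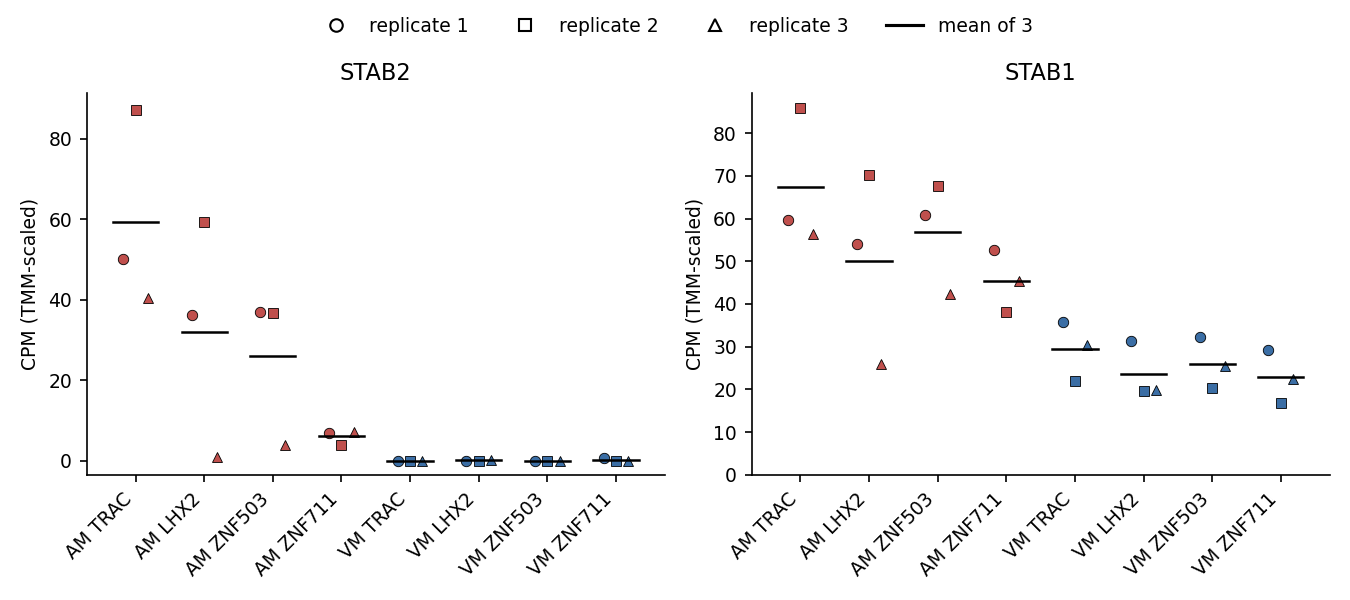
STAB2 (left) and STAB1 (right) in CPM for each of the 24 libraries, by group. Symbols mark replicates 1 to 3 and the bar is the mean of 3. STAB2 ranges from 0.947 to 87.1 CPM in AM and reaches 0.739 in VM, while STAB1 is read in every library.

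Ordered by mean, STAB2 was at 59.2 ± 24.6 CPM in AM TRAC (SD, n = 3), followed by AM LHX2 with 32.1 ± 29.3, AM ZNF503 with 25.9 ± 19.1 and AM ZNF711 with 6.07 ± 1.79. Each of the 3 steps between neighbours in this order was within the range of the libraries, which overlapped. AM ZNF711 lay wholly below AM TRAC, and so did AM ZNF503. The fitted log2 fold change from AM TRAC was −3.29 (SE 1.02) in ZNF711, with an unadjusted p of 0.00659 in the edgeR fit and an adjusted p of 1, −1.19 (SE 0.91) in ZNF503 and −0.90 (SE 0.91) in LHX2. None passed. The ZNF711 value did pass in edgeR fits of only the groups compared (adjusted p of 0.00506), of unfiltered genes (4.77e-19) and without all libraries numbered 3 (0.00351), with log2 fold changes of −3.31, −3.32 and −3.66. The unfiltered estimate was close to the −3.29 of the main fit. Its far smaller p thus came from the fitted spread and not from a larger difference. The 3 comparisons share the AM TRAC libraries, on which STAB2 was selected, so they are not independent of that choice.

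Endothelial genes as a whole varied less than STAB2 across the AM libraries, with summed levels of 366 to 560 CPM. The summed level of 11 pan-endothelial genes, among them PECAM1, CDH5 and VWF, was 422, 560 and 451 CPM in AM TRAC and 375, 428 and 432 in AM ZNF711. As a percentage of that sum, STAB2 was at 11.8, 15.6 and 8.99% for the replicates of AM TRAC. AM LHX2 stood at 8.72, 11.2 and 0.259%, AM ZNF503 at 8.91, 7.76 and 0.953%, and AM ZNF711 at 1.85, 0.939 and 1.68%. That sum varied less than STAB2 in AM, so the share largely follows STAB2 itself and is no separate evidence. In VM the pan-endothelial sum was 260 to 412 CPM, so endothelial transcripts were read there too, while STAB2 reached 0.203% of it. In bulk samples, fewer cells of a type and less RNA per cell cannot be told apart.

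**Figure D2:**
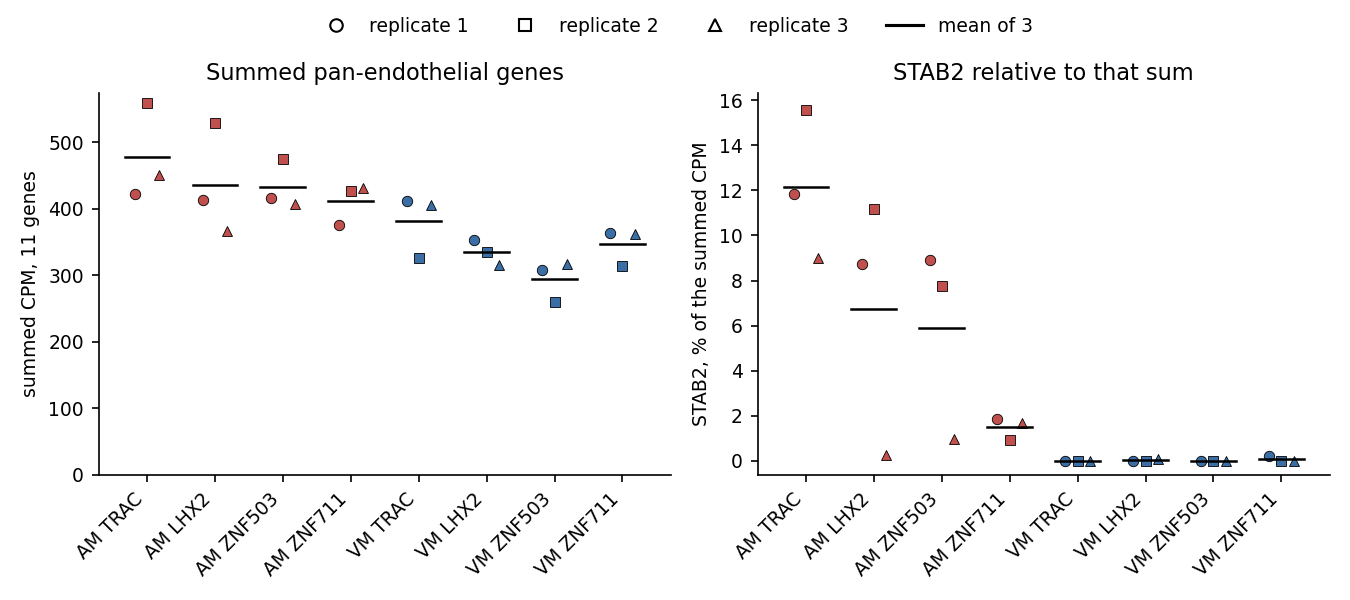
Summed CPM of 11 pan-endothelial genes (left) and STAB2 as a percentage of that sum (right) for each library, by group. The sums lie between 260 and 560 CPM in all groups, while the STAB2 share runs from 0 in 10 VM libraries to 15.6% in AM TRAC replicate 2.

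Within AM, the summed levels of hepatocyte and of cardiomyocyte genes were higher in the libraries with low STAB2. They were also higher in AM TRAC replicate 3, where STAB2 was not low. Replicates 3 of AM LHX2 and AM ZNF503, the low STAB2 libraries, had summed hepatocyte or visceral endoderm genes (8 genes, such as AFP and APOB) at 1041 and 825 CPM against 217 to 406 in replicates 1 and 2. Their summed cardiomyocyte genes (6 genes) were at 11114 and 9879 CPM against 5946 to 7480. AM ZNF711 had hepatocyte sums of 1015 to 2061 and cardiomyocyte sums of 10429 to 14527. AM TRAC replicate 3 had a hepatocyte sum of 1142 and a cardiomyocyte sum of 10508 with STAB2 at 40.5 CPM. MYH6 was the largest part of the cardiomyocyte sum, with an AM median of 7596 CPM against 9129 for the sum. AFP was the largest part of the hepatocyte sum, at 238 against 615. TNNT2 overlapped between AM ZNF711 and AM TRAC, at 378 ± 195 and 354 ± 128 CPM (SD, n = 3). Genes of macrophages, some of which are known to express STAB1 and LYVE1, summed to 8.09 to 22.4 CPM over 9 genes in AM and 6.55 to 17.5 in VM, with C1QA, C1QB and C1QC at 0 in all 24 libraries and 4 to 7 of 9 genes at 0 in each. The part of these cells in the STAB2 result was not tested.

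STAB1 was also higher in AM, by about 1 on the log2 scale, but unlike STAB2 it was read in every library. In LHX2 it was at 54.0, 70.3 and 26.0 CPM in AM and 31.2, 19.7 and 19.8 in VM, so that AM replicate 3 fell between the VM libraries. In ZNF503 it was at 60.8, 67.7 and 42.4 CPM in AM against 32.2, 20.4 and 25.5 in VM, with no overlap. In ZNF711 it was at 52.5, 38.1 and 45.4 CPM against 29.3, 16.9 and 22.5, again with no overlap. The log2 fold changes were 1.08 (SE 0.31), 1.13 (SE 0.30) and 0.99 (SE 0.31), with edgeR adjusted p of 0.0269, 0.0173 and 0.0329. In AM TRAC it was at 59.6, 86.0 and 56.3 CPM and in VM TRAC at 35.9, 22.0 and 30.4, a log2 fold change of 1.19 by description.

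The STAB1 calls were close to the threshold. Each was lost when any 1 of 4 libraries was left out, at edgeR adjusted p of 0.0889 to 0.216 in LHX2 (AM replicates 1 and 2, VM replicates 2 and 3), 0.0609 to 0.0975 in ZNF503 (the same numbers) and 0.0727 to 0.152 in ZNF711 (AM replicates 1 and 3, VM replicates 2 and 3), and the LHX2 call also when only the groups compared were fitted (0.0791). Without all libraries numbered 2 each STAB1 call was lost, at edgeR adjusted p of 0.465 in LHX2, 0.243 in ZNF503 and 0.155 in ZNF711. STAB1 shares 111 exon bases with NT5DC2 on the opposite strand, which had 274 to 1204 counts. Whether the counting used strand is not given in the sources used here.

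FLT4, the VEGF-C receptor, rose in AM in all 3 edited genotypes. The gene lies on chromosome 5, from 180601506 to 180649624 on the minus strand (GRCh38). It was at 83.1, 75.4 and 51.3 CPM in AM LHX2 against 14.0, 19.3 and 24.9 in VM LHX2. In ZNF503 it was at 75.8, 85.7 and 57.4 CPM against 16.8, 18.7 and 19.7. In ZNF711 it was at 55.2, 65.2 and 60.4 CPM against 27.1, 17.3 and 30.4. No AM library of any genotype overlapped a VM library, since the lowest AM value was 51.3 and the highest VM value 30.4. The log2 fold changes were 1.85 (SE 0.23), 1.98 (SE 0.23) and 1.28 (SE 0.22), with edgeR adjusted p of 3.76e-06, 1.13e-06 and 0.00034. In TRAC the levels were 70.0, 74.7 and 61.8 against 24.7, 22.8 and 29.8 CPM, a log2 fold change of 1.41 by description. Each call held without any single library, and the ZNF711 call was lost without all libraries numbered 2 (edgeR adjusted p of 0.063).

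PDPN, on chromosome 1 from 13583465 to 13617957 on the plus strand, fell in AM in all 3 edited genotypes. It was at 6.39, 12.1 and 10.8 CPM in AM LHX2 against 18.2, 18.2 and 29.5 in VM LHX2. In ZNF503 it was at 10.3, 11.7 and 8.51 CPM against 17.3, 18.7 and 23.6. In ZNF711 it was at 7.13, 7.43 and 11.2 CPM against 24.6, 18 and 22.1. All AM libraries were below all VM libraries, with 12.1 CPM the highest AM and 17.3 the lowest VM value. PDPN fell by 1.15 (SE 0.27), 0.96 (SE 0.27) and 1.34 (SE 0.28) on the log2 scale, with edgeR adjusted p of 0.00742, 0.0226 and 0.0019. In TRAC it was at 7.74, 8.24 and 5.27 against 19.0, 21.4 and 18.1 CPM. The LHX2 call was lost without AM replicate 1 (edgeR adjusted p of 0.0606) or VM replicate 3 (0.0756), and the ZNF503 call without AM replicate 1 (0.0729), AM replicate 3 (0.108) or VM replicate 3 (0.110) and with no filter on low counts (0.0518). The ZNF711 call held without any single library and was lost without all libraries numbered 1 (0.0634) or 2 (0.0594). Leaving out all libraries of 1 number gave edgeR adjusted p up to 0.0944 in LHX2 (number 1) and 0.216 in ZNF503 (number 3).

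**Figure D3:**
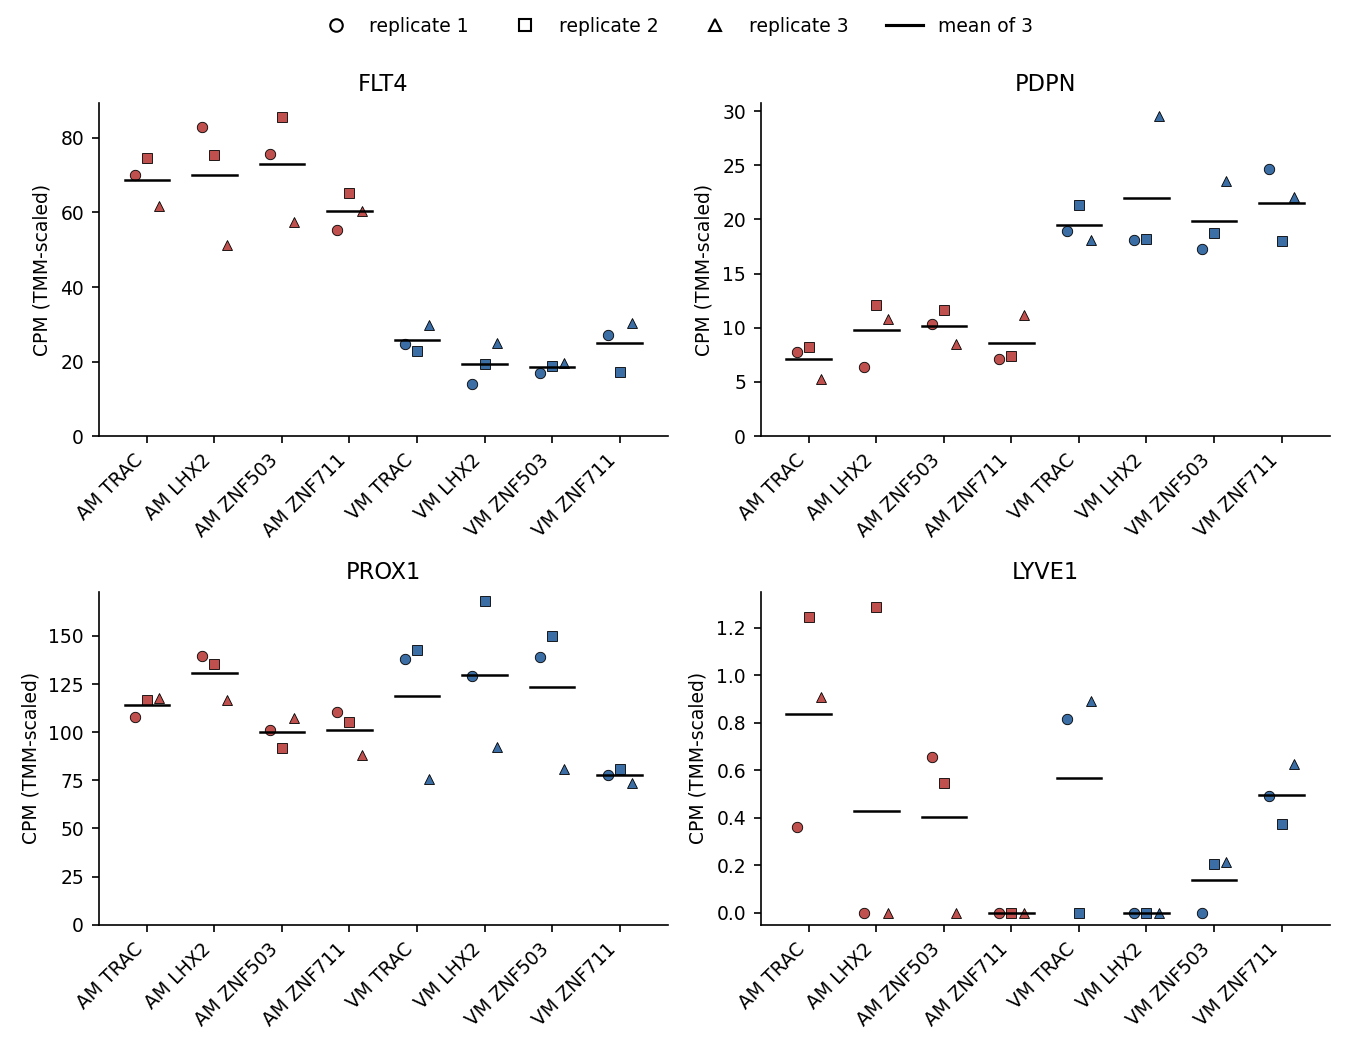
FLT4, PDPN, PROX1 and LYVE1 in CPM for each library, by group, with replicates 1 to 3 as symbols and the mean of 3 as a bar. AM lies above VM for FLT4 and below it for PDPN. PROX1 ranges of AM and VM overlap except in ZNF711, and LYVE1 stays at or below 1.29 CPM.

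PROX1 was the most abundant of the 6 and did not pass the test between conditions in any edited genotype. The gene lies on chromosome 1, from 213983181 to 214041502 on the plus strand. It was at 140, 136 and 117 CPM in AM LHX2 and 129, 168 and 92.5 in VM LHX2. In ZNF503 it was at 101, 91.7 and 107 CPM in AM and 139, 150 and 80.9 in VM. In ZNF711 it was at 111, 105 and 87.9 CPM in AM and 78.0, 81.0 and 73.5 in VM, the only edited genotype in which the ranges did not overlap. The log2 fold changes were 0.01 (SE 0.22), −0.30 (SE 0.22) and 0.39 (SE 0.22), with edgeR adjusted p of 0.991, 0.512 and 0.274. Without all libraries numbered 3 the ZNF503 difference passed, at −0.58 with an adjusted p of 0.0233. In TRAC, PROX1 was at 108, 116 and 118 CPM in AM and 138, 143 and 75.9 in VM. PROX1 shares 171 exon bases with the opposite-strand transcript PROX1-AS1, which had 29 to 128 counts.

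Within VM, PROX1 split by replicate number and genotype. Replicates 1 and 2 of VM LHX2, ZNF503 and TRAC were at 129 to 168 CPM, replicate 3 of the same groups at 75.9 to 92.5, and the 3 VM ZNF711 libraries at 73.5 to 81.0. The summed cardiomyocyte genes of these 3 sets of libraries were 12655 to 17431, 7695 to 9418 and 5106 to 7250 CPM, and the summed hepatocyte or visceral endoderm genes 1699 to 4519, 9831 to 27040 and 11523 to 28100 CPM. The pan-endothelial sums overlapped, at 260 to 412, 316 to 406 and 314 to 364 CPM. MYH6 was the largest part of the cardiomyocyte sum, with a VM median of 8125 CPM against 11036 for the sum. PROX1 was thus low in the VM libraries with low cardiomyocyte and high hepatocyte sums, and the part of those cells in its level was not tested. In AM, PROX1 stayed at 87.9 to 140 CPM.

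**Figure D4:**
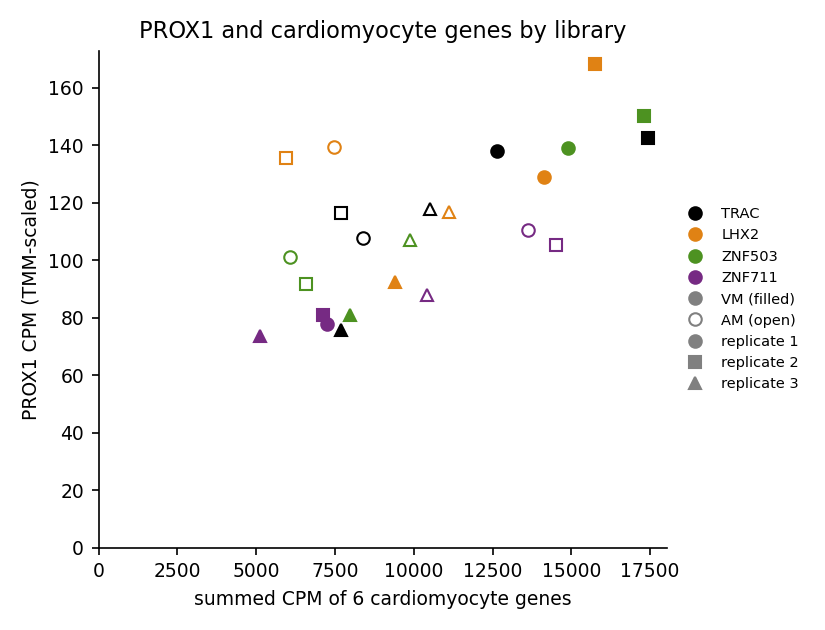
PROX1 in CPM against the summed CPM of 6 cardiomyocyte genes for each library (filled, VM; open, AM; colour, edited gene; shape, replicate). The 6 VM libraries with PROX1 at 75.9 to 92.5 or 73.5 to 81.0 CPM have sums of 5106 to 9418, below the 12655 to 17431 of the 6 other VM libraries.

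VM ZNF711 had less PROX1 than VM TRAC on average, 77.5 ± 3.77 against 119 ± 37.3 CPM (SD, n = 3), but VM TRAC replicate 3 lay among the ZNF711 libraries. The log2 fold change was −0.61 (SE 0.22), with an unadjusted p of 0.0105 and an adjusted p of 0.343 in the edgeR fit. With a replicate block within each condition it was −0.56 and passed, at an edgeR adjusted p of 0.00307 in a fit that called 1485 of all genes against 3 without the block, and it also passed without VM TRAC replicate 3, at −0.87 with an adjusted p of 0.0214, without all libraries numbered 3, at −0.81 with 0.00435, and with no filter, at −0.62 with 0.0497.

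LYVE1, on chromosome 11 from 10556966 to 10611689 on the minus strand, was at or near the detection limit in every group. It had 27 counts over the 12 AM and 19 over the 12 VM libraries, at most 8 in any library, and none in 11 of the 24. Only 5 AM and 3 VM libraries reached 3 counts. By replicate, AM TRAC had 2, 8 and 5 counts, AM LHX2 0, 5 and 0, AM ZNF503 4, 3 and 0, and AM ZNF711 none. VM TRAC had 4, 0 and 6 counts, VM LHX2 none, VM ZNF503 0, 1 and 1, and VM ZNF711 2, 2 and 3. A difference between conditions was not detectable at this depth. Without the filter on low counts, the edgeR adjusted p was 0.144 or more in each of 12 comparisons.

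Between conditions, 3 of the 5 tested genes rose in AM and 1 fell in LHX2 and again in ZNF503, and 2 rose and 1 fell in ZNF711. Of all 17724 tested genes, edgeR called 4.68% higher and 3.88% lower in AM in LHX2. The shares were 4.77% and 4.1% for ZNF503 and 6.81% and 6.42% for ZNF711. With a replicate block, 2781, 2642 and 4150 genes were called in either direction, against 1517, 1571 and 2345 without it. The median log2 fold change of the 5 genes was 1.08, 1.13 and 0.99, and that of all tested genes 0.00 in each. STAB2 was one of the genes that rose in LHX2 and ZNF503 and is part of each median. It was selected on its AM and VM difference in TRAC and passed the filter on low counts only through AM libraries. The 6 genes were assembled around STAB2 after its difference was known, so these counts are no independent evidence that the set is higher in AM.

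**Figure D5:**
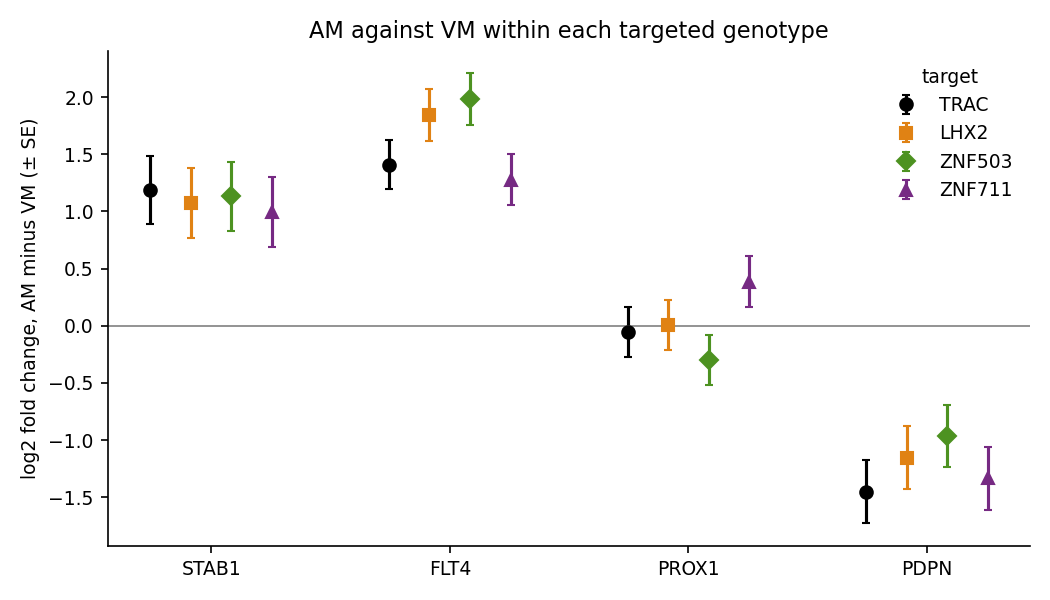
Fitted log2 fold change, AM minus VM, with its standard error for STAB1, FLT4, PROX1 and PDPN in each edited genotype. STAB1 and FLT4 lie above 0 and PDPN below 0 in all 4, and PROX1 lies between −0.30 and 0.39. TRAC values are a description.

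Against TRAC, none of the 5 tested genes passed in any of the 6 comparisons, 3 in AM and 3 in VM, and DESeq2 called none either. The edgeR fit called 0% of all genes in AM LHX2, AM ZNF503, AM ZNF711, VM LHX2 and VM ZNF503 and 0.0169% in VM ZNF711. Genes with an unadjusted p under 0.05 numbered 1372, 309, 618, 463, 274 and 1666 in that order, and DESeq2 called 37, 1, 0, 0, 0 and 59. With a replicate block edgeR called 201, 1, 7, 1, 0 and 402 genes, none of them these 5. Among the 5, the unadjusted p was under 0.05 for STAB2 in AM ZNF711, FLT4 in VM ZNF503 and PROX1 in VM ZNF711. FLT4 was at 18.4 ± 1.47 CPM in VM ZNF503 and 25.8 ± 3.64 in VM TRAC (SD, n = 3). STAB1 was at 45.4 ± 7.20 CPM in AM ZNF711 against 67.3 ± 16.3 in AM TRAC, with every ZNF711 library below the control, and did not pass, with a log2 fold change of −0.57 (SE 0.29).

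Whether the difference between conditions itself changed with genotype was tested among LHX2, ZNF503 and ZNF711, without the TRAC libraries. No tested member passed in any of the 3 comparisons, by edgeR or DESeq2, and edgeR called 0.00564% of all genes for ZNF711 against LHX2, 0.00564% for ZNF711 against ZNF503 and 0% for ZNF503 against LHX2, with 1855, 1550 and 375 genes at an unadjusted p under 0.05 and 109, 125 and 0 called by DESeq2. For ZNF711 against ZNF503, FLT4 had an edgeR estimate of −0.71 (SE 0.31) with an adjusted p of 0.502, and PROX1 of 0.69 (SE 0.31) with 0.517. With a replicate block within each condition PROX1 passed, at 0.63 with an edgeR adjusted p of 0.0222, in a fit that called 997 of all genes. The smaller STAB2 ratio in ZNF711 was not shown to differ. The log2 estimates were −3.78 (SE 4.12) against LHX2 and −5.36 (SE 4.92) against ZNF503, with edgeR adjusted p of 0.80 and 0.832. No VM library had more than 3 STAB2 counts, and these errors were too wide for the test to decide. STAB2 also entered it only because AM libraries passed the filter on low counts.

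Levels can be compared between genes only per length. As CPM per kilobase of merged GENCODE 29 exons, the AM medians were 12.2 for PROX1, 7.64 for FLT4, 5.21 for STAB1, 3.93 for STAB2, 2.26 for PDPN and 0.0512 for LYVE1. In VM they were 12.4 for PROX1, 5.08 for PDPN, 2.40 for FLT4, 2.27 for STAB1, 0.0594 for LYVE1 and 0 for STAB2. STAB2 thus stood just above PDPN in AM and last in VM, where PDPN stood next to PROX1. Within single libraries, PROX1 was above FLT4 and FLT4 above STAB1 in 12 of 12 AM libraries, and STAB1 was above STAB2 in 11 of 12. STAB2 was above PDPN in 7 AM libraries and below it in 5, so these neighbours had no fixed order. In VM, PROX1 was above PDPN and PDPN above FLT4 in 12 of 12 libraries, while FLT4 was above STAB1 in 8 and below it in 4.

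The ligand of FLT4 rose with it. VEGFC, which encodes VEGF-C, was at 46.3, 42.2 and 45.7 CPM in AM LHX2 against 4.86, 6.57 and 4.19 in VM LHX2. Its log2 fold change was 3.10 (SE 0.27) in LHX2, with 2.75 (SE 0.27) for ZNF503 and 2.36 (SE 0.26) for ZNF711, and edgeR adjusted p of 2.47e-08, 9.41e-08 and 6.85e-07. AM means were 44.7, 45.8 and 49.0 CPM and VM means 5.21, 6.80 and 9.53. NR2F2, the orphan nuclear receptor COUP-TFII of atrial, venous and lymphatic cells, rose by 3.70, 3.72 and 2.45 on the log2 scale, from VM means of 25.6, 30.1 and 79.8 CPM to AM means of 333, 398 and 437. ANGPT1, which encodes a ligand of the endothelial receptor TEK, rose by 2.45, 2.32 and 3.25.

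Of 19 genes of VEGF-C signalling and the lymphatic program, 17 were tested, of which 4 rose and 1 fell in AM in LHX2. The counts were 6 and 1 for ZNF503, and 7 and 2 for ZNF711. The list medians were 0.36, 0.83 and 0.76 on the log2 scale, against 0.00 for all genes. ITGA9, an integrin subunit of lymphatic valves, also rose in all 3 genotypes, by 1.26 (SE 0.14), 1.69 (SE 0.14) and 1.78 (SE 0.14). RELN, a secreted glycoprotein made by lymphatic endothelium and by neurons, fell in all 3, by 1.14, 0.99 and 0.60. ADAMTS3, a protease that activates VEGF-C, rose in ZNF711, from 13.7 to 32.4 CPM.

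The other hyaluronan genes that passed the test all fell in AM. Of 8 tested, none rose, while LHX2 had 2 that fell, ZNF503 also 2 and ZNF711 had 4, with medians of −0.58, −0.88 and −1.15. HAS2, the main hyaluronan synthase of the developing heart, was at 59.4 ± 2.08, 58.4 ± 1.79 and 46.2 ± 10.8 CPM in AM against 131 ± 8.84, 144 ± 12.6 and 107 ± 33.4 in VM (SD, n = 3), in the same order of genotypes. CD44, a widely expressed hyaluronan receptor, fell by 1.41 (SE 0.24), 1.59 (SE 0.24) and 2.37 (SE 0.25) on the log2 scale, with edgeR adjusted p of 0.000235, 4.89e-05 and 4.26e-07. In VM ZNF711, CD44 was at 29.9 ± 5.49 CPM, and in AM ZNF711 at 5.81 ± 1.58. HYAL1, a lysosomal hyaluronidase, and HMMR were the other 2 that fell in ZNF711.

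Several genes that define liver sinusoidal endothelium were not read. CLEC4G, FCN2 and FCGR2B were at 0 in all 24 libraries and CLEC4M reached 4 counts at most. Of the 9 tested among 13, none passed in LHX2, 1 rose in ZNF503 and 3 rose in ZNF711. The one in ZNF503 was OIT3, at 14.1 ± 2.09 CPM in AM against 6.41 ± 1.34 in VM. Those in ZNF711 were MRC1, GATA4 and CRHBP, of which GATA4 is also a cardiac transcription factor. The list medians in LHX2, ZNF503 and ZNF711 were 0.03, 0.44 and 0.86 on the log2 scale. DNASE1L3, CD36 and FCN3 had lower medians in AM, at 0, 0.77 and 0.65 CPM against 1.47, 2.10 and 0.87 in VM. Each of them had 19 counts or fewer in any library. The stabilins were therefore read without the defining lectins of liver sinusoids, CLEC4G and CLEC4M, at more than 4 counts. The 4 lymphatic markers did not move together either, since FLT4 rose, PDPN fell, PROX1 did not pass and LYVE1 was near the detection limit. The 6 genes are for that reason referred to by name and not as the signature of a cell type.

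The pan-endothelial genes that passed the test were all higher in AM, but most did not pass in LHX2 and ZNF711. Of 11 pan-endothelial genes, all tested, 3 rose in LHX2, 6 in ZNF503 and 3 in ZNF711 and none fell, with medians of 0.53, 0.60 and 0.50. FLI1, an ETS transcription factor of endothelial and blood cells, was below 0 in all 3, at −0.03, −0.05 and −0.73, without passing, and PECAM1, an endothelial adhesion molecule, was at 0.17, 0.23 and −0.13. ESAM, an endothelial junction protein, rose in all 3 genotypes by 0.79, 1.03 and 0.73 on the log2 scale. CDH5, the cadherin of endothelial junctions, rose in ZNF503 by 1.03 (SE 0.24) and in ZNF711 by 0.78 (SE 0.24). Of 7 endocardial genes, 1 rose and 1 fell in LHX2, 3 rose in ZNF503, and 2 rose and 2 fell in ZNF711. NPR3, a natriuretic peptide receptor of endocardium, rose in all 3, by 1.39, 1.12 and 1.12, whereas NFATC1, a transcription factor of endocardial cushions, fell in LHX2 by 0.87 and in ZNF711 by 0.75.

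Marker genes of other cell types also differed between the same libraries. Of 8 hepatocyte or visceral endoderm genes, 2 fell in AM in LHX2, 4 in ZNF503 and 5 in ZNF711. SERPINA1, a secreted protease inhibitor of hepatocytes, fell in all 3 by 4.82, 5.61 and 5.54. TTR, HNF4A and FOXA2 of that list passed in none, with HNF4A at 0.40, −0.32 and −1.23. The list sums were 217 to 2061 CPM in AM and 1699 to 28100 in VM. Of 6 cardiomyocyte genes, 3 fell in LHX2, 4 in ZNF503, and 1 rose and 1 fell in ZNF711, and MYH7, the ventricular myosin heavy chain, fell in all 3 by 4.02, 5.24 and 2.31. PDGFRA, a receptor of fibroblasts and other mesenchyme, rose by 2.15, 2.35 and 2.74, and the mesothelial transcription factor BNC1 by 1.71, 1.53 and 1.04. Of 7 tested fibroblast genes, 3, 2 and 1 rose, and of 7 tested epicardial genes 3, 3 and 1 rose and 1 fell in ZNF711. The fibroblast medians were 1.25, 0.65 and 0.02 on the log2 scale, and the epicardial medians 1.71, 0.18 and −0.49. Among epicardial genes, KRT19 was at −0.62, −0.61 and −0.49 without passing. ALDH1A2 was at −0.62, −0.26 and −1.37 and passed only in ZNF711. COL1A1 and COL1A2 were positive in LHX2 and ZNF503, negative in ZNF711 (−0.26 and −0.51), and did not pass. Of 5 tested neural genes, 1 rose in LHX2, none passed in ZNF503, and 1 rose and 1 fell in ZNF711, and neither tested macrophage gene passed. Whether the numbers of such cells differed, and their part in the members' differences, was not tested.

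Genes that varied most like each member were ranked by Pearson's r of log2 CPM over 12 libraries of 1 condition, among genes with a mean of 50 counts or more. These libraries share genotypes, replicate numbers and cell makeup, so r is a description. Over the AM libraries, STAB2 was most like FLRT2 (r = 0.954), MYRF (0.949), MFAP4 (0.944), STAB1 (0.936) and DAB2 (0.932). FLRT2 is a cell-surface adhesion and guidance protein, MYRF a membrane-bound transcription factor, MFAP4 a protein of elastic fibres and DAB2 a clathrin adaptor. For STAB1 in AM, STAB2 was first and NOTCH2 second (0.927). PROX1 in VM was most like SH3RF2 (0.988), KCNH7 (0.987) and ANK3 (0.985), and in AM like EIF2AK2 (0.934), MBOAT2 (0.932) and JAK2 (0.920). FLT4 was most like RAB3IL1 (0.951), LTBP4 (0.939) and JAKMIP2 (0.930) in AM, and like SLC25A42 (0.855), PRPSAP1 (0.844) and PPP1R13L (0.832) in VM. PDPN had lower values, with WFIKKN1 first in AM (0.854) and GATC in VM (0.891). Without all libraries numbered 3, none of the 5 genes named for STAB2 stayed among the first 5, although r of each with STAB2 was 0.883 or more. Other ranks changed too. Leaving out any 1 of the 3 replicate numbers kept 0 of the 3 genes named for STAB1 in AM, for PROX1 in VM and for FLT4 in VM. The lowest r of the named genes in those fits was 0.856, 0.982 and 0.703, and for PDPN in VM it was 0.502.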

How the data were processed

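Bulk RNA sequencing of 24 libraries in 8 groups of 3 was analysed from the authors' deposited gene counts. Reads were aligned with STAR to GRCh38, per the submitters' processing notes. The counting program, its use of strand and the annotation release are not given in the sources used here. The labels name both polyA RNA and ribosomal depletion with the KAPA RiboErase kit (Roche). Genes were kept by filterByExpr (17724 of 62757) and tested in edgeR 4.0.16 (quasi-likelihood, robust, TMM scaling, 1 mean per group over all 24 libraries, 16 residual degrees of freedom), with Benjamini-Hochberg adjustment over all tested genes and calls below 0.05. The standard error is the log2 fold change divided by the root of the F statistic. Totals were 2899786 to 7438010 counts. Every count column matched a library. The 6 members, the 11 lists and the tests were chosen with earlier results of these data known. List genes were named when called in all 3 edited genotypes, if each library of the higher group had 50 counts or more, the 3 largest per list. Genes called in fewer genotypes, and ITGA9 and RELN, were chosen after their values were seen. Same-numbered libraries deviated together (r of 0.125 to 0.786 over 11428 genes in all 10 pairs of groups). What the numbers mark is not stated. The main fit had no term for the number and so did not use this pairing, which entered only through the replicate blocks. The fit was run on simulated data with independent libraries and the same spread for every gene. That setting covers neither same-numbered libraries that deviate together nor a group without counts. Alternatives were relative log expression (RLE) scaling, library size alone, no filter, DESeq2 1.42.0, 1 CPM in 3 libraries, only the groups compared, replicate blocks, and leaving out single libraries. Leaving out all libraries of 1 number was added after seeing the data. Promoter windows for LYVE1, FLT4 and PROX1 were not used here.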

Additional observations from a re-analysis of the deposited data

How the results depend on the processing

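Counts of the 5 tested genes that passed between conditions depended on single libraries. From 4 in LHX2 the count was 2 with only the groups compared (STAB2 not tested there, STAB1 not passing) and 1 to 4 over fits with libraries left out, the lowest without VM LHX2 replicate 3 or without all libraries numbered 1 or 2. Without AM LHX2 replicate 1 it was 2. From 4 in ZNF503 it ranged from 1 to 4, with 2 without AM ZNF503 replicate 1 or VM ZNF503 replicate 3 and 1 without all libraries numbered 1 or 2. From 3 in ZNF711 it rose to 4 (STAB2) with no filter, DESeq2 or only the groups compared, and over left-out libraries it ranged from 0 to 3, with 1 without all libraries numbered 1 and 0 without those numbered 2. These fits have fewer samples. The count against TRAC rose from 0 to 1 in AM ZNF711 (STAB2) with no filter, only the groups compared, and without all libraries numbered 3, range 0 to 1, and in VM ZNF711 (PROX1) with no filter and the replicate block within each condition, range 0 to 1 over left-out libraries. For the difference of ZNF711 against ZNF503 it rose from 0 to 1 (PROX1) under that nested block and ranged from 0 to 1. The cause was not tested. A replicate block with 1 term per number changed no count of these genes, 4, 4 and 3 between conditions and 0 elsewhere. Reversals were seen for PROX1 alone: in LHX2 from 0.01 to −0.0084 with no filter, −0.0063 at 1 CPM in 3 libraries and −0.052 under the nested block, range −0.18 to 0.24, and in TRAC, range −0.32 to 0.11. Over the 191 alternative values per gene that keep all libraries, 175 kept direction and side of the threshold, 8 newly passed, 5 no longer passed and 3 reversed. The longest transcript in place of merged exons kept the order of levels per length. Depth leaves LYVE1 and VM STAB2 at the counting limit.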
